A study of Mus musculus with 10 samples.

Results

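Expression of 9 genes that are recurrently altered in pancreatic ductal adenocarcinoma (PDAC) was examined in mouse pancreatic tumors: Trp53, Cdkn2a, Cdkn2b, Smad4, Myc, Arid1a, Gata6, Rnf43 and Brca2. They were taken by name, with no threshold on their values, as the rows of the count table whose Ensembl identifier carries 1 of these symbols. All 9 were found among 37417 genes, and 8 of the 9 were among the 15299 genes with enough counts to be tested. Gata6 did not pass the filter on low counts and is described by its counts.

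Bulk RNA-seq had been performed on 10 s.c. tumors of C57BL/6J mice, wild type per the labels and 12 weeks of age, taken on day 16 after injection of Panc02, a mouse pancreatic cancer cell line. In 5 tumors the cancer cells carried an sgRNA against Cda, the cytidine deaminase gene (sgCda), and in 5 a nontargeting sgRNA (sgNT). Cells of both groups carried a Cas9 nuclease induced by doxycycline. The comparison addresses whether targeting of Cda in cancer cells goes with a change in the tumor transcriptome, read here for the genes of PDAC. Nothing in the labels says that a mouse gave more than 1 tumor, and p-values measure the spread between these tumors. Each group rests on 1 guide in 1 cell line. Host cells were not edited. The whole tumor was sequenced, so that cancer cells and host cells both contribute to a level, and fewer cells of a type and less RNA per cell cannot be told apart.

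The guides are shown because they define the groups. The sgCda guide matched the sense strand of Cda on chromosome 4 at 138351219-138351238 (build GRCm38), within exon 2 of 4, and the 3 genomic bases after it are GGG, the motif that Cas9 needs. The guides are given 5′ to 3′.
nontargeting guide: gaacagtcgcgtttgcgact
sgCda guide: tccagaaggccatctccgaa

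PDAC typically progresses as oncogenes are activated and tumor suppressors are lost. Trp53 encodes the transcription factor p53, which halts the cell cycle or triggers cell death after DNA damage. The CDKN2A and CDKN2B locus encodes inhibitors of the kinases CDK4 and CDK6, which inactivate the retinoblastoma protein, and ARF, which protects p53 from its ubiquitin ligase MDM2. SMAD4 is the partner that SMAD proteins share in signalling from TGFβ and BMP receptors. MYC drives genes of ribosome production and metabolism, ARID1A is a subunit of the BAF chromatin remodelling complex, GATA6 is a transcription factor of the endoderm that marks the classical type of PDAC, RNF43 is a ubiquitin ligase that removes WNT receptors from the cell surface, and BRCA2 acts in the repair of DNA breaks by homologous recombination.

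Assigned counts ranged from 28051907 to 39484964 per tumor. Cda itself had 12.1 ± 1.76 CPM (counts per 1000000 counts of the scaled library size, mean ± SD, n = 5) in sgNT and 9.77 ± 2.34 CPM in sgCda tumors, with overlapping groups (log2 fold change -0.30, edgeR p = 0.0963, exact permutation p = 0.111, adjusted p = 0.9996). A cut in a gene need not lower its mRNA, so that this level is only a partial check of the labels. The authors checked the targeting by RT-qPCR and western blot. They also report Cda mRNA in endothelial cells and some in fibroblasts sorted from such tumors. The tumors sgCda 3 and sgCda 4 lay at opposite ends of the first principal component, which held 40.7% of the variance, and sgCda 4 also had the highest share of mitochondrial counts (5.82%) and of reads outside genes (18.4%). Markers of epithelial cells differed widely in level. In sgNT tumors, the keratin Krt8 had 476 ± 79.4 CPM, and the means of Krt18, Cdh1 and Krt19 were 230, 18.1 and 14.0 CPM. The other listed markers were low, with means of 1.30 CPM for Cldn7, 1.09 for Muc1, 1.03 for Epcam, 0.820 for Lcn2, 0.472 for Krt7 and 0.0188 for Cldn4. Epcam had a mean of 1.77 CPM in sgCda tumors (log2 fold change 0.78, edgeR p = 0.0305, exact permutation p = 0.0317, adjusted p = 0.9996). The log2 fold changes of Krt8, Krt18, Cdh1 and Muc1 were negative. Of 13 genes of acinar and islet cells, 12 did not pass the filter and 5 were at 0 in all tumors. Macrophage markers summed to 5221 to 8015 CPM in sgNT and 4942 to 8433 CPM in sgCda tumors, and none of the 11 marker lists of cell types differed beyond the spread between tumors (smallest two-sided exact permutation p = 0.198). That test used the mean of the genes of a list that passed the filter, which left 1 gene for acinar and islet cells and 2 for keratinocytes.

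None of the 8 tested genes passed the test between sgCda and sgNT tumors. No gene of the table passed an adjusted p of 0.05 in edgeR's quasi-likelihood test (0 of 15299, 0.0%), and 382 genes had an unadjusted p under 0.05 (2.5%; 1.54% higher and 0.954% lower in sgCda), among which were 0 of these 8 genes. DESeq2 and limma-voom also gave 0 genes at an adjusted p under 0.05, with 433 and 317 genes at an unadjusted p under 0.05. The groups did not overlap for 92 genes (0.601%), and they overlapped for all 9 genes studied here. The tightest limits were those of Trp53, for which the 95% interval of the difference ran from -12.5% to 8.12%, and the widest among the tested genes were those of Cdkn2a, from -37.3% to 142%. All fold changes that follow are sgCda against sgNT, and 52.9% of all tested genes had a positive log2 fold change.

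**Figure D1:**
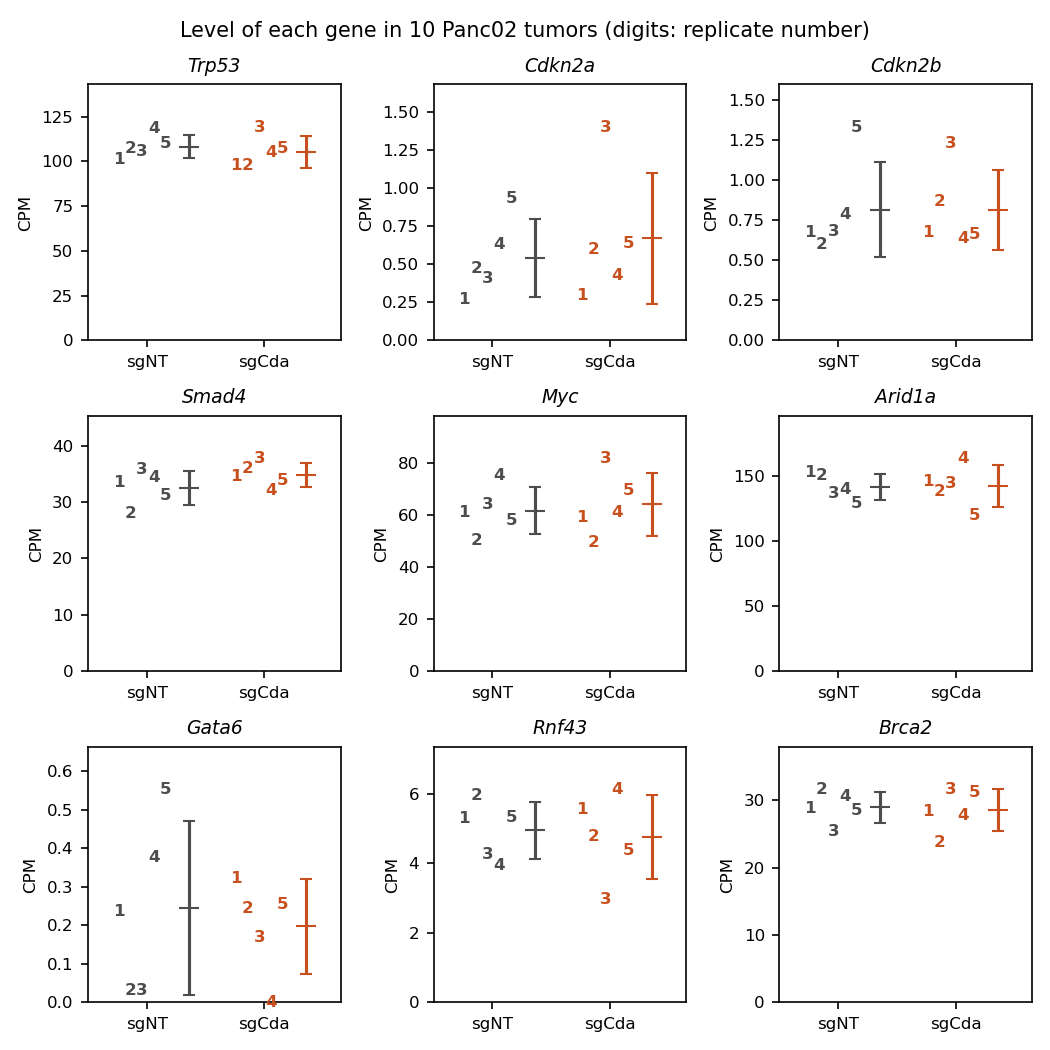
CPM of the 9 genes in each tumor, 1 panel per gene, with sgNT in grey and sgCda in orange; the digits stand for the replicate number, the bars for mean ± SD (n = 5), and every vertical axis starts at 0. The groups overlap in every panel, and Cdkn2a, Cdkn2b and Gata6 stay under 1.5 CPM in all tumors.

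The genes covered a wide range of levels. To compare genes, CPM were divided by the length of all annotated exons in kilobases (CPM per kb), and values are the mean ± SD over the 10 tumors. Trp53 was the highest with 26.4 ± 1.83 CPM per kb, followed by Myc with 23.1 ± 3.75 CPM per kb. Their ranges over tumors overlapped. Arid1a (12.4 ± 1.09 CPM per kb), Smad4 (9.07 ± 0.749 CPM per kb) and Brca2 (2.11 ± 0.193 CPM per kb) each lay apart from their neighbours in this order, with no overlap of ranges. Rnf43 (0.739 ± 0.150 CPM per kb), Cdkn2b (0.586 ± 0.186 CPM per kb) and Cdkn2a (0.516 ± 0.290 CPM per kb) overlapped with one another. Gata6 was the lowest, with 0.0340 ± 0.0266 CPM per kb. Among 14709 tested genes with a length, Trp53 stood at the percentile 85.9 of level per kb and Cdkn2a at the percentile 14.7. With the length of the longest transcript as divisor, the order was kept except that Cdkn2a came above Cdkn2b.

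**Figure D2:**
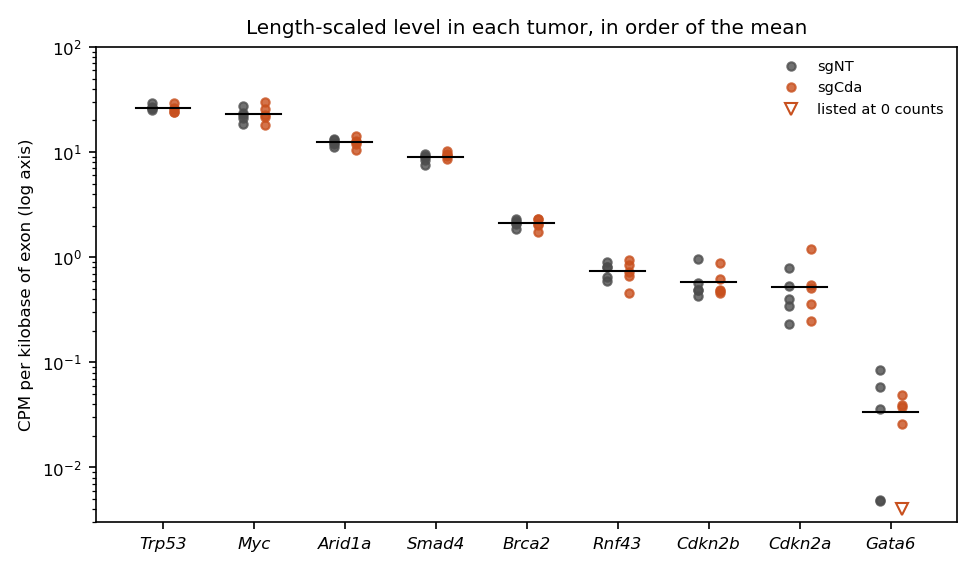
CPM per kilobase of exon for each gene in each tumor on a log axis, ordered by the mean over 10 tumors (black line); grey points are sgNT, orange points sgCda, and the open triangle marks the sgCda tumor in which Gata6 had 0 counts, which a log axis cannot show. Trp53 and Myc lie highest at 26.4 and 23.1 CPM per kb, and Gata6 lies lowest at 0.0340 CPM per kb.

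Trp53 (ENSMUSG00000059552, chromosome 11, 69580359-69591873, plus strand, GRCm38) was expressed at a similar level in all tumors. Its level was 101, 107, 105, 118 and 110 CPM in sgNT tumors 1 to 5 and 97.9, 97.6, 119, 105 and 107 CPM in sgCda tumors 1 to 5. The highest tumor, sgCda 3, was 1.22 times the lowest, sgCda 2, and both belong to the same group. The log2 fold change was -0.04 (SE 0.070, 95% interval -0.19 to 0.11, edgeR p = 0.574, adjusted p = 0.9996, exact permutation p = 0.5), and 1 of 5 sgCda tumors lay above the sgNT mean. The biological coefficient of variation of Trp53 was 0.097, at the percentile 26.8 of the 500 tested genes nearest in level. Of the 50-base windows of its transcripts, 3.95% also occur in transcripts of other genes, so that a small part of its reads may have been left out of the count.

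No listed target of p53 passed the test. Of 26 listed targets, all tested, 0 had an unadjusted p under 0.05, 12 were higher and 14 lower in sgCda, and their median log2 fold change was -0.01 against 0.0078 over all tested genes. Cdkn1a, the cell cycle inhibitor p21, had 47.5 ± 15.9 CPM in sgNT tumors and 45.3 ± 15.4 CPM in sgCda tumors (exact permutation p = 0.786). Mdm2, which encodes the ligase that degrades p53 and is itself a p53 target, had 66.9 ± 10.9 and 71.9 ± 9.81 CPM (exact permutation p = 0.444). The target with the smallest p was Pmaip1, which encodes the death protein NOXA, with 9.13 ± 2.20 and 11.2 ± 1.03 CPM (edgeR p = 0.0832, exact permutation p = 0.0952). Among 13 tested regulators of p53, 2 had an unadjusted p under 0.05 (15.4%, against 2.5% of all tested genes), both with lower values in sgCda. These were the kinase genes Hipk2, at 68.3 ± 8.96 CPM in sgNT against 55.7 ± 5.97 CPM in sgCda (log2 fold change -0.29, edgeR p = 0.0163, exact permutation p = 0.0397, adjusted p = 0.9996), and Atm, at 81.3 ± 7.99 and 70.3 ± 4.27 CPM (log2 fold change -0.21, edgeR p = 0.0192, exact permutation p = 0.0317, adjusted p = 0.9996). Neither passed the adjustment.

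Across the 10 tumors, Trp53 and the mean log2 CPM of its targets showed no detectable relation (Pearson's r = 0.16, permutation p = 0.668). The r of single targets with Trp53 ran from -0.79 for Sesn1, which encodes a stress-induced antioxidant protein, to 0.94 for Gtse1, which encodes a protein of the G2 phase, and 13 of 26 were positive. With the neutrophil markers Trp53 had an r of -0.86 (permutation p = 0.00245, adjusted p = 0.214 over 88 relations with marker lists). This r was -0.46 without the 2 tumors farthest from the median of the neutrophil markers. The 3 genes of the table closest to Trp53 over the 10 tumors were Aaas (r = 0.99), the Fanconi anaemia gene Fanca (r = 0.98) and the splicing regulator gene Ptbp1 (r = 0.98). These r are the highest of 13269 genes and are given as a description.

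Cdkn2a and Cdkn2b, neighbours on chromosome 4, were both near the lower end of detection. Cdkn2a (ENSMUSG00000044303, chromosome 4, 89274471-89294653, minus strand) encodes p16 and, from an upstream first exon, ARF. The counts were made per gene and do not separate these transcripts. Cdkn2b (ENSMUSG00000073802, chromosome 4, 89306299-89311039, minus strand) encodes p15. The RefSeq promoter table (GRCm38.p6) held an entry for 6 of the 9 genes, and the 3 entries of this locus are shown because both genes were low. Each has 300 bases around a transcript start on the minus strand, given 5′ to 3′, and capitals mark matches on either strand to the GC box GGGCGG and the E2F site TTTCCCGC or TTTGGCGC. The upstream Cdkn2a promoter is at chr4:89294570-89294869, the inner Cdkn2a promoter at chr4:89282143-89282442 and the Cdkn2b promoter at chr4:89310983-89311282.
Cdkn2a upstream promoter: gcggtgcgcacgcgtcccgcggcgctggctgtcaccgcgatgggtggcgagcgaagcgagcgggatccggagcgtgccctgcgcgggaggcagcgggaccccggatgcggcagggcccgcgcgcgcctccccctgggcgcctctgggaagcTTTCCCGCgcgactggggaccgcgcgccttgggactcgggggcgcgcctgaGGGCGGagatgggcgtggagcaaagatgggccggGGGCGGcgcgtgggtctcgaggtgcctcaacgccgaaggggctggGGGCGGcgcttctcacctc
Cdkn2a inner promoter: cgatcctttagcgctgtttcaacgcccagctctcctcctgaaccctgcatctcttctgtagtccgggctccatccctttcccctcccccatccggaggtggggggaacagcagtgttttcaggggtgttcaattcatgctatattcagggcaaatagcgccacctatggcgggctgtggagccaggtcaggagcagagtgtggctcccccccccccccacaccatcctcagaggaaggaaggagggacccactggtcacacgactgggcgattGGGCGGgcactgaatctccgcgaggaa
Cdkn2b promoter: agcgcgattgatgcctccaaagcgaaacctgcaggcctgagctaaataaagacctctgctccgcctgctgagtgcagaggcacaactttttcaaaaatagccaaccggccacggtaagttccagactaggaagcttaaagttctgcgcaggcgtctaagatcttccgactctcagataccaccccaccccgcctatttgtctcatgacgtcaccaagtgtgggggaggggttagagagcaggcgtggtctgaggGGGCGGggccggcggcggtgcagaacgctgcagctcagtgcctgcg

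The upstream Cdkn2a promoter held 45 CpG dinucleotides, the inner promoter 12 and the Cdkn2b promoter 18, whereas the median of all 32817 promoters in the table was 7. The upstream Cdkn2a promoter had 3 GC boxes and 1 E2F site, and each of the other two had 1 GC box. A GC box was found in 35.6% of all promoters and an E2F site in 1.56%. The E-box CACGTG, the site of MYC and its partner MAX (7.15% of all promoters), and the TATA box TATAAA (13.6%) were searched on both strands too, and neither letter string was in these 3 windows. The matches describe the sequence and not binding, and DNA methylation was not measured here.

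Cdkn2a had 8, 15, 13, 20 and 37 counts in sgNT tumors 1 to 5 and 10, 22, 50, 12 and 20 counts in sgCda tumors 1 to 5. As CPM these were 0.270, 0.474, 0.403, 0.628 and 0.930 in sgNT and 0.292, 0.598, 1.40, 0.425 and 0.633 in sgCda. The highest tumor was sgCda 3, whose 95% Poisson interval was 1.04 to 1.84 CPM, and the lowest was sgNT 1 with an interval of 0.116 to 0.531 CPM. These intervals cover counting error only. The groups overlapped, with a log2 fold change of 0.30 (SE 0.44, 95% interval -0.67 to 1.27, edgeR p = 0.513, adjusted p = 0.9996, exact permutation p = 0.659). Without sgCda 3 the log2 fold change was -0.16, so that its sign rests on this tumor. The coefficient of variation over the 10 tumors was 56.1%, compared with 22.0% expected from counting alone.

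Cdkn2b had 0.674, 0.600, 0.682, 0.785 and 1.33 CPM in sgNT tumors 1 to 5 and 0.671, 0.870, 1.23, 0.638 and 0.665 CPM in sgCda tumors 1 to 5, from 18 to 53 counts per tumor. The tumors sgNT 5 and sgCda 3 stood above the other 8. Between the groups the log2 fold change was -0.0029 (SE 0.29, 95% interval -0.63 to 0.62, edgeR p = 0.992, adjusted p = 0.9996, exact permutation p = 0.937), and it was 0.25 without sgNT 5. The same tumors, sgCda 3 and sgNT 5, were the highest for Cdkn2a. Over the 10 tumors the log2 CPM of Cdkn2a and Cdkn2b had a Pearson's r of 0.82 (permutation p = 0.00422, adjusted p = 0.0923 over 28 pairs of genes) and a Spearman's rho of 0.52 (permutation p = 0.132). The r was 0.44 (exact permutation p = 0.279) without the 2 tumors farthest from the median of Cdkn2b. The relation was thus weaker without those tumors, and with fewer tumors the higher p does not show that it is absent.

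The nearest protein-coding neighbour that was clearly expressed was Mtap, the methylthioadenosine phosphorylase gene, which lies 93390 bases from Cdkn2a at chromosome 4, 89137122-89181081. It had 11.2 ± 1.80 CPM in sgNT tumors and 11.6 ± 3.20 CPM in sgCda tumors (exact permutation p = 0.873). On the other side, the nearest gene Dmrta1 had 2 to 9 counts per tumor. The remaining neighbours that were in the table, Ifna4, Ifne, Zfp352, Elavl2, Izumo3 and Gm12666, had at most 4 counts in any tumor. Reads of both Cdkn2a and Cdkn2b were seen in every tumor, at low levels, between a transcribed gene and genes at or near 0. Reads of cancer cells and of host cells cannot be told apart here, so that these levels do not describe the locus in Panc02 cells.

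The kinases and cyclins that p15 and p16 act on were abundant. The means in sgNT and sgCda tumors were 224 ± 20.2 and 221 ± 23.9 CPM for Cdk4, 30.4 ± 3.33 and 26.6 ± 4.84 CPM for Cdk6, and 541 ± 75.7 and 495 ± 119 CPM for the cyclin D1 gene Ccnd1. Rb1, the retinoblastoma gene, had 45.9 ± 3.03 and 46.8 ± 2.94 CPM. Of 17 tested genes of this pathway, 0 had an unadjusted p under 0.05, with 5 higher and 12 lower in sgCda and a median log2 fold change of -0.03. Cdk6 had the smallest p (edgeR p = 0.142, exact permutation p = 0.159). Over the 10 tumors the mean of this list had an r of 0.69 with Cdkn2a and 0.65 with Cdkn2b (permutation p = 0.0284 and 0.0436, adjusted p = 0.0568 and 0.0698 over 8 relations of a gene with its list). Neither passed the adjustment, and without sgCda 3 the r were 0.46 and 0.46 (exact permutation p = 0.217 and 0.223). Among the closest genes over the tumors were Gps1 and Mrps27 for Cdkn2a (r = 0.93 and 0.92) and Ebf3, Sgce and Cnn3 for Cdkn2b (r = 0.97, 0.94 and 0.93).

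Smad4 (ENSMUSG00000024515, chromosome 18, 73639009-73703780, minus strand) was expressed in every tumor. It had 33.5, 27.9, 35.7, 34.3 and 31.2 CPM in sgNT tumors 1 to 5 and 34.5, 36.0, 37.8, 32.0 and 33.8 CPM in sgCda tumors 1 to 5. The lowest tumor was sgNT 2 and the highest sgCda 3, and 4 of 5 sgCda tumors lay above the sgNT mean. The log2 fold change of 0.10 (SE 0.078, 95% interval -0.07 to 0.27, edgeR p = 0.230, adjusted p = 0.9996, exact permutation p = 0.206) had the smallest p among the 8 genes, at rank 2760 of the 15299 genes tested. Without sgNT 2, the lowest tumor, it was 0.047, and leaving out each of the other tumors gave 0.067 to 0.14. Neighbours of Smad4 on both sides were expressed as well, with 93.6 ± 4.24 CPM of Mex3c and 13.6 ± 1.01 CPM of Elac1 in sgNT tumors. Me2 and Mbd2 were also transcribed, at 48.4 ± 2.30 and 127 ± 9.13 CPM in sgNT, and none of these 4 genes had an unadjusted p under 0.05. Dcc, a receptor gene that is often lost together with SMAD4 in human tumors, and Mro had at most 1 count in any tumor.

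Of 11 tested SMAD genes and SMAD regulators, 1 was higher and 1 lower in sgCda at an unadjusted p under 0.05 (18.2%, against 2.5% of all tested genes). A negative log2 fold change was found for 10 of the 11 (median -0.05), whereas 52.9% of all tested genes had a positive one. Genes of a list are not independent replicates, so that these counts are a description. Smad1, which transmits BMP signals, had 26.0 ± 1.30 CPM in sgNT tumors and 28.7 ± 1.45 CPM in sgCda tumors (log2 fold change 0.14, edgeR p = 0.0403, exact permutation p = 0.0159, adjusted p = 0.9996). Smad6, an inhibitor of that signal, had 5.93 ± 0.588 and 4.81 ± 0.513 CPM (log2 fold change -0.30, edgeR p = 0.0326, exact permutation p = 0.0159, adjusted p = 0.9996). Neither Smad1 nor Smad6 held after adjustment. For the TGFβ branch, Smad2 had 47.7 ± 0.856 and 45.3 ± 1.95 CPM, Smad3 had 123 ± 16.6 and 117 ± 19.7 CPM, and the inhibitor Smad7 had 29.0 ± 2.71 and 28.4 ± 3.11 CPM. The test used changed the reading for Smad2 as a single gene, with an edgeR p of 0.197 and an exact permutation p of 0.0397, unadjusted.

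Of 14 tested SMAD target genes, 0 had an unadjusted p under 0.05 (5 higher, 9 lower, median log2 fold change -0.03). Junb, an immediate early gene with the smallest p of the list, had 131 ± 18.8 and 119 ± 7.72 CPM (edgeR p = 0.202, exact permutation p = 0.278). Over the 10 tumors Smad4 and the mean of these targets had an r of 0.57 (permutation p = 0.0856, adjusted p = 0.114). Lists of cell type markers were related to the genes after seeing the data. Smad4 had an r of 0.77 with muscle (permutation p = 0.00486, adjusted p = 0.214 over 88 relations) and of 0.77 with macrophages (permutation p = 0.00912, adjusted p = 0.220). These r were 0.83 and 0.77 without the 2 tumors farthest from the median of the respective marker list. Neither relation passed the adjustment, and the part of these cells in the level of Smad4 was not tested. The closest genes to Smad4 were Mcemp1, Hspb1 and Atp5f1 (r = 0.93, 0.92 and 0.90).

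Myc (ENSMUSG00000022346, chromosome 15, 61985391-61990374, plus strand) varied more between tumors than Trp53 or Smad4. It had 60.8, 50.4, 64.1, 75.0 and 57.8 CPM in sgNT tumors 1 to 5 and 59.0, 49.4, 81.8, 60.9 and 69.4 CPM in sgCda tumors 1 to 5. The highest tumor (sgCda 3) was 1.65 times the lowest (sgCda 2), and the 2 lowest tumors, sgCda 2 and sgNT 2, came 1 from each group. Its biological coefficient of variation was 0.165, at the percentile 83.0 of the 500 genes nearest in level. The log2 fold change was 0.06 (SE 0.14, 95% interval -0.25 to 0.36, edgeR p = 0.688, adjusted p = 0.9996, exact permutation p = 0.738), and -0.05 without sgCda 3. Max, the partner of MYC on DNA, had 80.8 ± 6.34 and 83.3 ± 5.54 CPM, and of 12 tested genes of the MYC network 0 had an unadjusted p under 0.05 (median log2 fold change 0.04, smallest edgeR p = 0.405, exact permutation p = 0.421, for Mxd3, which encodes a MAX partner that opposes MYC).

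Among 24 MYC target genes, all tested, 1 had an unadjusted p under 0.05. This was Tfrc, the transferrin receptor gene, at 108 ± 6.33 CPM in sgNT tumors and 144 ± 31.7 CPM in sgCda tumors (log2 fold change 0.41, edgeR p = 0.0118, adjusted p = 0.9996, exact permutation p = 0.0556). The median log2 fold change of the list was 0.01, with 14 genes higher and 10 lower. Ncl, which encodes nucleolin, had 632 ± 67.0 and 652 ± 105 CPM, and Odc1, the ornithine decarboxylase gene, 186 ± 33.4 and 188 ± 34.3 CPM.

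Tumors with more Myc had higher levels of the MYC targets, whichever group they belonged to. Over the 10 tumors, the log2 CPM of Myc and the mean log2 CPM of the 24 targets had a Pearson's r of 0.91 (permutation p = 2e-05, adjusted p = 0.00016 over 8 relations) and a Spearman's rho of 0.92 (permutation p = 0.00049, adjusted p = 0.00392). The relation held without the 2 tumors farthest from the median of the target mean (r = 0.80, exact permutation p = 0.0171). It also held after subtraction of the group means (r = 0.91, permutation p = 1e-05, the smallest that the 100000 resamples can give). Leaving out single tumors gave r from 0.87 to 0.94.

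Each of the 24 targets had a positive r with Myc, with a median of 0.76, whereas the median over all 15298 other tested genes was 0.0011 and 50.1% were positive. The r was highest for Shmt2, a serine hydroxymethyltransferase gene (0.89), Gnl3, which encodes nucleostemin (0.88), Wdr43 (0.85), which functions in ribosome assembly, and the spermidine synthase gene Srm (0.84). It was lowest for Tfrc (0.12), Cad, which encodes the first enzyme of pyrimidine synthesis (0.46), and Bop1 (0.54). Genes are not independent replicates, so that these r are a description.

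The relation with the MYC targets was not shown to be particular to Myc. Trp53 had an r of 0.88 and Rnf43 of -0.89 with the mean of the same targets, and differences between these r were not tested. The r of Myc was also 0.75 with the homologous recombination genes, 0.73 with the CDK4/6 and RB genes, 0.70 with the SMAD targets, -0.75 with the MYC network and -0.79 with genes of WNT reception. The first principal component of all tested genes had an r of 0.62 with Myc and of 0.76 with the MYC targets. The part of this general difference between tumors in the relation was not tested. The closest genes to Myc were 9530053A07Rik, Tead4 and Itga6 (r = 0.97, 0.96 and 0.96).

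**Figure D3:**
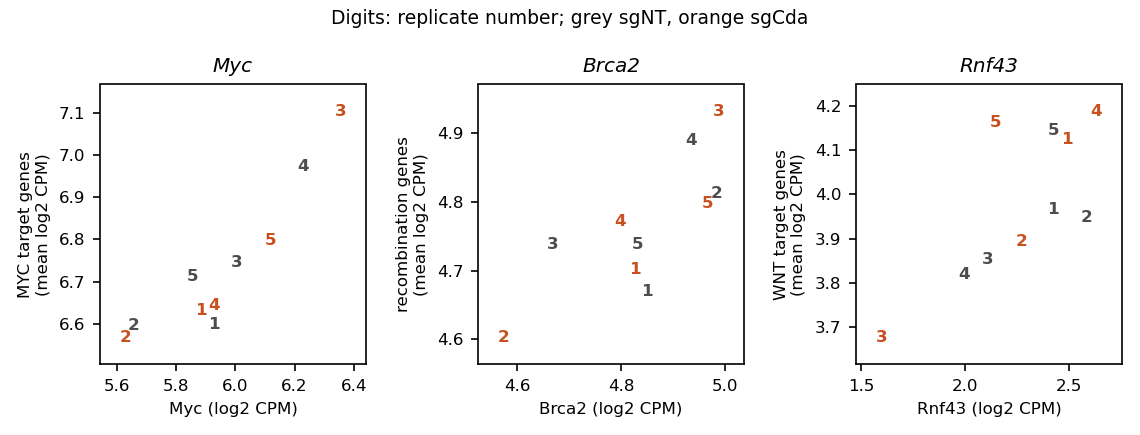
Log2 CPM of Myc, Brca2 and Rnf43 (horizontal axes) against the mean log2 CPM of the 24 MYC targets, the 25 recombination genes and the 10 tested WNT target genes (vertical axes); each digit is a tumor, numbered by replicate, in grey for sgNT and orange for sgCda, and axes do not start at 0. Myc and its targets rise together over both groups (r = 0.91). The relations of Brca2 (r = 0.78) and Rnf43 (r = 0.75) are weaker without single tumors at the lower end, sgCda 2 and sgCda 3.

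Arid1a (ENSMUSG00000007880, chromosome 4, 133679008-133756769, minus strand) had the most counts of the 9 genes and encodes a DNA-binding subunit of the BAF complex. It had 153, 151, 136, 140 and 129 CPM in sgNT tumors 1 to 5 and 146, 138, 144, 164 and 120 CPM in sgCda tumors 1 to 5. The highest and the lowest tumor, sgCda 4 and sgCda 5, were both sgCda. The log2 fold change was 0.0070 (SE 0.084, 95% interval -0.18 to 0.19, edgeR p = 0.935, adjusted p = 0.9996, exact permutation p = 0.976), and without sgCda 4 it was -0.05. Of the 22 other BAF subunit genes tested, 0 had an unadjusted p under 0.05 (16 higher, 6 lower, median log2 fold change 0.03). Arid1b, the paralog that can take the place of ARID1A in the complex, had 96.4 ± 8.52 CPM in sgNT tumors and 91.7 ± 5.94 CPM in sgCda tumors, and the ATPase gene Smarca4 had 171 ± 9.47 and 169 ± 12.1 CPM. Dpf2 had the smallest p (77.7 ± 3.41 and 74.3 ± 1.71 CPM, edgeR p = 0.236, exact permutation p = 0.0873). Arid1a and the mean of the subunits showed no detectable relation over the tumors (r = 0.37, permutation p = 0.289).

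Arid1a was related to a measure of the libraries. Its log2 CPM and the share of reads outside annotated genes, 10.3% to 18.4% per tumor, had an r of 0.86 (permutation p = 0.00106, adjusted p = 0.00848 over 8 genes) and a rho of 0.90 (permutation p = 0.00067). The r was 0.82 (exact permutation p = 0.0147) without the 2 tumors farthest from the median of that share. These relations were computed after seeing the data, and none of the other 7 genes had an adjusted p under 0.05 (smallest adjusted p = 0.320). The rest of the table was not related to this share, so that the relation is not shown to be particular to Arid1a. With the mean of a further list of genes altered in PDAC, Arid1a had an r of 0.85, given without a test. The cause was not tested. The closest genes to Arid1a were Cabin1, Chd9, which encodes a chromatin remodeller, and Dock9 (r = 0.96, 0.96 and 0.94).

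Gata6 (ENSMUSG00000005836, chromosome 18, 11052064-11085635, plus strand) was close to the limit of detection. It had 7, 1, 1, 12 and 22 counts in sgNT tumors 1 to 5 and 11, 9, 6, 0 and 8 counts in sgCda tumors 1 to 5. As CPM the means were 0.246 ± 0.226 in sgNT and 0.197 ± 0.123 in sgCda tumors, and 3 counts, taken as the floor, equal 0.0754 to 0.106 CPM. The highest and the 2 next to lowest tumors were sgNT, the tumor at 0 was sgCda 4, and the groups overlapped. With a filter of 1 count in any tumor, its log2 fold change was -0.33 (edgeR adjusted p = 0.991), and without sgCda 3 and sgCda 4, where it passed the usual filter, it was 0.11 (edgeR adjusted p = 0.997), so that the sign rests on these tumors or the filter. A difference between the groups was thus not detectable at this depth. An antisense gene, 1010001N08Rik, shares 93 exonic bases with Gata6, and the strand setting of the count is not given in the sources used here.

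Other transcription factors of the endoderm were mostly at or near 0 too. Of 21 listed factors, 6 passed the filter. Foxa2 and the acinar factor gene Ptf1a were at 0 in all 10 tumors, and Gata4 and Hnf4a had at most 1 count in any tumor. The 6 factors that passed were led by Sox9, a factor of duct cells, at 62.3 ± 8.51 CPM in sgNT tumors and 69.9 ± 20.7 CPM in sgCda tumors, and Pdx1, the master factor of the pancreas, at 58.2 ± 6.6 and 49.6 ± 7.39 CPM (log2 fold change -0.23, edgeR p = 0.0685, exact permutation p = 0.111, adjusted p = 0.9996). Klf5 had 10.7 ± 0.690 and 14.4 ± 4.76 CPM (log2 fold change 0.43, edgeR p = 0.0533, exact permutation p = 0.151, adjusted p = 0.9996), Cdx2, a factor of the intestine, 9.32 ± 1.15 and 8.40 ± 1.64 CPM, and Sox17 1.55 ± 0.366 and 1.72 ± 0.329 CPM. The log2 fold change of Klf5 was 0.27 without sgCda 4 and 0.58 without sgCda 2, and its unadjusted edgeR p was under 0.05 without sgCda 2 or without sgCda 3. With all 10 tumors, its unadjusted edgeR p was 0.0499 with library totals and 0.0461 with a filter of 1 count in any tumor. The Wald test of DESeq2 gave an unadjusted p of 0.041. Pdx1 and Sox9 were thus expressed where Gata6, Foxa2 and Hnf4a were not, or hardly, detected. With the usual filter and scaling, 0 of the 6 had an unadjusted edgeR p under 0.05 over all 10 tumors.

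Rnf43 (ENSMUSG00000034177, chromosome 11, 87662722-87735539, plus strand) was low. It had 5.29, 5.94, 4.25, 3.93 and 5.30 CPM in sgNT tumors 1 to 5 and 5.54, 4.76, 2.97, 6.13 and 4.37 CPM in sgCda tumors 1 to 5. The lowest and the highest tumor, sgCda 3 and sgCda 4, were the same tumors that stood apart in the principal component. Rnf43 had a log2 fold change of -0.06 (SE 0.20, 95% interval -0.50 to 0.38, edgeR p = 0.781, adjusted p = 0.9996, exact permutation p = 0.722), and it was 0.07 without sgCda 3. Znrf3, the paralog of Rnf43 with the same function, was more abundant, at 26.2 ± 1.58 CPM in sgNT tumors and 25.9 ± 2.85 CPM in sgCda tumors. Of 16 tested genes of WNT reception 0 had an unadjusted p under 0.05 (4 higher, 12 lower, median log2 fold change -0.05), with the smallest p for the coreceptor gene Lrp6 (148 ± 14.9 and 134 ± 8.65 CPM, edgeR p = 0.0776, exact permutation p = 0.0714).

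Of 10 tested WNT target genes, a list to which feedback inhibitors belong, 0 had an unadjusted p under 0.05 as well (6 higher, 4 lower, median log2 fold change 0.02). Axin2 had 6.87 ± 1.11 and 9.05 ± 2.92 CPM (exact permutation p = 0.190), Lgr5, a receptor of the R-spondins, 8.43 ± 1.58 and 8.32 ± 2.35 CPM, and Lef1, with the smallest p, 1.60 ± 0.353 and 2.19 ± 0.674 CPM (edgeR p = 0.0945, exact permutation p = 0.127). Over the 10 tumors, Rnf43 and the mean of these targets had an r of 0.75 (permutation p = 0.0102, adjusted p = 0.0272) and a rho of 0.73 (permutation p = 0.0194, adjusted p = 0.0517). Without the 2 tumors farthest from the median of the target mean the r was 0.43 (exact permutation p = 0.277). Without sgCda 3 it was 0.55 (exact permutation p = 0.122). The relation was thus weaker without those tumors, and with fewer tumors the higher p does not show that it is absent. Single targets ran from r = 0.92 for Apcdd1 and 0.86 for Lgr5 to -0.84 for Ccnd1. With the mean of the genes of WNT reception the r of Rnf43 was 0.95, and with that of the CDK4/6 and RB genes it was -0.88. These r with other lists are a description and were not tested.

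Rnf43 moved against the main difference between tumors, with an r of -0.87 with the first principal component. Among the marker lists, its r was -0.77 for T cells and -0.72 for macrophages (permutation p = 0.00999 and 0.0169). These r were -0.31 and -0.37 without the 2 tumors farthest from the median of the respective marker list. None of 88 relations of the 8 genes with 11 marker lists had an adjusted p under 0.05 (smallest adjusted p = 0.214, 8 with an unadjusted p under 0.05). These relations were computed after seeing the data. The closest genes to Rnf43 were Ccdc157, Zeb1, which encodes a factor of the epithelial-mesenchymal transition, and A430033K04Rik (r = 0.99, 0.98 and 0.98).

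Brca2 (ENSMUSG00000041147, chromosome 5, 150522630-150570329, plus strand) had 28.8, 31.6, 25.4, 30.5 and 28.4 CPM in sgNT tumors 1 to 5 and 28.3, 23.8, 31.6, 27.8 and 31.2 CPM in sgCda tumors 1 to 5. The lowest tumor was sgCda 2, and the highest, sgCda 3 and sgNT 2, came from both groups. With a log2 fold change of -0.02 (SE 0.090, 95% interval -0.22 to 0.18, edgeR p = 0.835, adjusted p = 0.9996, exact permutation p = 0.802), Brca2 did not pass the test, and the value was 0.04 without sgCda 2. Of its 50-base windows, 1.96% also occur in transcripts of other genes. Among 25 genes of homologous recombination, all tested, Atm was the only one with an unadjusted p under 0.05, and the median log2 fold change was 0.00079 (13 higher, 12 lower). Brca1 had 49.4 ± 6.11 CPM in sgNT tumors and 47.0 ± 7.94 CPM in sgCda tumors, and Palb2, which joins BRCA1 and BRCA2, 8.08 ± 0.369 and 8.57 ± 1.11 CPM.

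Over the 10 tumors, Brca2 and the mean of the recombination genes had an r of 0.78 (permutation p = 0.00815, adjusted p = 0.0272) and a rho of 0.78 (permutation p = 0.0106, adjusted p = 0.0424). The r was 0.55 (exact permutation p = 0.162) without the 2 tumors farthest from the median of the list mean. It was 0.64 (exact permutation p = 0.0618) without sgCda 2. The relation was thus weaker without those tumors, and with fewer tumors the higher p does not show that it is absent. Trp53 had a higher r with the same list (0.92), and Myc had an r of 0.75; the differences were not tested. The r was positive for 22 of the 25 genes, compared with 45.8% of all genes. The highest r were those of the Fanconi anaemia genes Fancd2 (0.95) and Fanci (0.83) and of Brca1 (0.81), and the lowest was that of Rad52 (-0.42). The genes of the table closest to Brca2 were Akap1, Fancd2 and Fv1 (r = 0.96, 0.95 and 0.95).

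**Figure D4:**
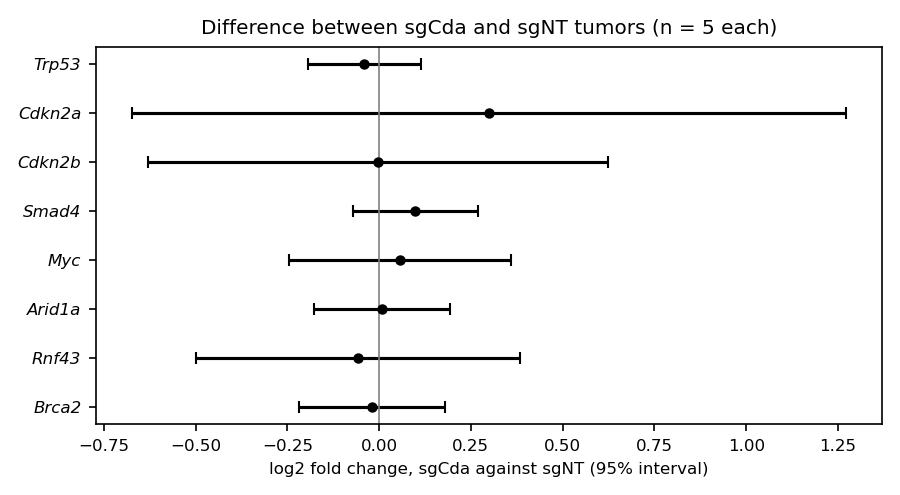
Log2 fold change of sgCda against sgNT tumors (n = 5 each) for the 8 tested genes, with 95% intervals as bars; Gata6 is not shown because it did not pass the filter. Every interval crosses 0, and those of Cdkn2a (-0.67 to 1.27) and Cdkn2b (-0.63 to 0.62) are the widest.

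The genes were compared with one another too, after seeing the data. Of 28 pairs of the 8 tested genes, 0 had an adjusted p under 0.05 for their correlation over the 10 tumors, and 8 had an unadjusted p under 0.05. Besides Cdkn2a with Cdkn2b, the strongest was Myc with Rnf43 (r = -0.78, permutation p = 0.00659, adjusted p = 0.0923, rho = -0.67). The r of Myc with Rnf43 was -0.42 (exact permutation p = 0.301) without the 2 tumors farthest from the median of Rnf43. Trp53 had an r of 0.73 with Cdkn2a and 0.74 with Myc (permutation p = 0.0166 and 0.0150, both with an adjusted p of 0.105). The tumor sgCda 3 was the highest for Trp53, Cdkn2a, Smad4, Myc and Brca2, the second highest for Cdkn2b, and the lowest for Rnf43, and in it the markers of skeletal muscle summed to 1909 CPM, against 1.74 CPM in the lowest sgCda tumor. The part of this in the levels was not tested.

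A further list of 25 genes altered in PDAC, all tested, had 0 genes at an unadjusted p under 0.05 higher and 1 lower in sgCda, which was Atm, and a median log2 fold change of 0.03. Over the whole table the smallest p in each direction were those of B130006D01Rik, at 0.374 ± 0.0998 and 0.964 ± 0.496 CPM (log2 fold change 1.35, edgeR p = 0.00214, exact permutation p = 0.00794), and of the glycosyltransferase gene B3gnt3, at 54.2 ± 3.42 and 45.1 ± 2.52 CPM (log2 fold change -0.26, edgeR p = 0.00181, exact permutation p = 0.00794). Both had an adjusted p of 0.9996, and 0.00794 is the smallest p that the exact permutation test can give here.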

How the data were processed

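RNA-seq gene counts of 10 tumors (5 sgNT, 5 sgCda) were used, with groups and replicate numbers from the sample titles. The authors extracted total RNA with TRIzol, made stranded libraries from polyadenylated RNA, read the first 50 bases of fragments, aligned trimmed reads to GRCm38 (mm10) with TopHat and Bowtie, and counted reads per Ensembl gene with HTSeq. The strand setting and the annotation release are not given in the sources used here. The deposited values are whole-number counts without normalization. HTSeq leaves out reads that map to several places or genes. Per tumor, 10.3% to 18.4% of reads fell outside genes and were kept out of library sizes and tests with the other 4 summary lines of the table.

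Genes were filtered with filterByExpr (minimum count 10, minimum total 15), scaled with TMM, and compared with the quasi-likelihood test of edgeR 4.0.16 (glmQLFit, glmQLFTest, R 4.3.3) over all 10 tumors without covariates, with Benjamini-Hochberg adjustment over all 15299 genes. The study states no test for this comparison. The F statistic of each gene gave its standard error and 95% interval. For single genes, mean log2 CPM were also tested with an exact permutation over all 252 assignments (two-sided), whose smallest p is 0.00794. The script was tested on simulated counts.

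Log2 CPM had a prior count of 2. Correlations used permutation tests with 100000 resamples for 10 tumors and all permutations for fewer, adjusted over 8 relations of a gene with the mean of its list. Exon lengths and positions came from GENCODE (GRCm38), symbols were found for 32608 of the 37417 genes, and 337 of 338 listed symbols were matched (not Cdkn2d). Genes named were the 9 genes, fixed partners, the neighbours of Cdkn2a, Cdkn2b and Smad4, the gene with the smallest p of each list and, in each direction, of the table, and, for each tested gene, the 3 genes with the highest r among 13269 with a mean log2 CPM of at least 0. Further genes of a list or its extreme r were named after their values were seen. The genes, lists and tests were chosen with earlier results of these data known. Marker scores, pairs of genes and reads outside genes were related to the genes after seeing the data.

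Alternatives were the size factors of DESeq2 1.42.0, library totals, 2 other filters, limma-voom (limma 3.58.1), a block for the replicate number, the Wald test of DESeq2, leaving out each tumor, and, for correlations, a prior count of 0.5, the median of the list and removal of group means. Removal of both sgCda 3 and sgCda 4 was added after seeing the data. Whether equal replicate numbers pair tumors was checked from their deviations from the group means. The Ifna5 and Ifna1 genes were not analysed here, and some genes of the fixed partners and of the highest r are not reported here.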

Additional observations from a re-analysis of the deposited data

Results flagged for a closer look

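In 66 groups of 5 tumors examined (the 9 genes, their pathway lists and the marker lists, in each group of tumors), 4 held a tumor far from the other 4 by Dixon's ratio, where chance gives about 1 in 20, or 3.3. Cdkn2b had 1.33 CPM in sgNT 5, against 0.600 to 0.785 CPM in the other sgNT tumors. The mean log2 CPM of the SMAD targets was 5.41 in sgNT 2, where the other sgNT tumors had 5.67 to 5.73, and Smad4 was lowest in the same tumor (27.9 CPM). The mean log2 CPM of the neutrophil markers was 3.05 in sgCda 3, where the other sgCda tumors had 4.54 to 4.65, and this tumor was also the highest for Trp53, Cdkn2a, Smad4, Myc and Brca2. The mean log2 CPM of the keratinocyte markers, taken over the 2 that passed the filter, was 2.65 in sgNT 4, against 1.73 to 1.96 in the other sgNT tumors. The part of other cell types in the levels of the 9 genes was not tested.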

How the results depend on the processing

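The count of genes with an adjusted p under 0.05 was 0 under every alternative tried, and no log2 fold change of the 9 genes passed it. The count with an unadjusted p under 0.05 was 830 with a filter of 1 count in any tumor, which tests 26302 genes, and 280 to 747 when single tumors were left out, highest without sgCda 3. Besides Klf5, other named genes had an unadjusted edgeR p under 0.05 only when some single tumor was left out. The lowest such p were 0.0347 for Cda, 0.014 for Cdk6, 0.0354 for Ccnd1 and 0.0115 for Axin2. They were 0.0385 for Lef1, 0.00691 for Pmaip1, 0.0316 for Junb and 0.036 for Pdx1. No clear pairing of the tumors by replicate number was detected. Same-numbered tumors had correlations of their deviations from -0.43 to 0.34, and 2 of 5 numbers matched their own best. With 5 numbers this check cannot exclude a pairing. With the replicate block, 0 genes passed the adjusted and 325 the unadjusted threshold, and Cdkn2b turned to 0.016. Log2 fold changes near 0 changed sign under some alternatives. Cdkn2b was 0.0061 with library totals and 0.0065 with limma-voom. With the filter of 1 count Arid1a was -0.014.

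Without both sgCda 3 and sgCda 4, an alternative chosen after seeing the data, the log2 fold changes with another sign were Gata6 0.11 (which passed the filter only without these tumors or with the filter of 1 count), Cdkn2a -0.11, Myc -0.057, Arid1a -0.075, Odc1 -0.047, Lgr5 0.13, Mdm2 -0.0071, Mbd2 -0.026, Ncl -0.11, Smad3 0.034, Mex3c 0.0087, Palb2 -0.040, Max -0.0015 and Mtap -0.069. The cause was not tested. Leaving out single tumors gave log2 fold changes of -0.16 to 0.59 for Cdkn2a, -0.20 to 0.25 for Cdkn2b, 0.047 to 0.14 for Smad4, -0.047 to 0.14 for Myc, -0.047 to 0.062 for Arid1a, -0.17 to 0.072 for Rnf43 and -0.062 to 0.043 for Brca2. Among partners they were -0.072 to 0.028 for Cdk4, -0.093 to 0.11 for Odc1, -0.14 to 0.13 for Lgr5, -0.22 to 0.14 for Cdkn1a, -0.016 to 0.050 for Mbd2, -0.13 to 0.086 for Me2, -0.084 to 0.033 for Smad7, -0.044 to 0.11 for Ncl, -0.049 to 0.0061 for Smarca4, -0.13 to 0.026 for Smad3, -0.028 to 0.12 for Elac1, -0.049 to 0.030 for Znrf3, -0.00037 to 0.075 for Max and -0.12 to 0.13 for Mtap.

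The relation of Myc with its targets kept a permutation p under 0.05 under all 15 alternatives. The r with the own list was also taken without the 2 tumors farthest from the median of the list mean. It was then -0.53 for Trp53, 0.52 for Cdkn2a, 0.42 for Cdkn2b, -0.21 for Arid1a, 0.43 for Rnf43 and 0.55 for Brca2. With the median of the list it was 0.36 for Cdkn2a, 0.27 for Cdkn2b and -0.074 for Arid1a. Leaving out single tumors gave r of -0.25 to 0.44 for Trp53, 0.46 to 0.75 for Cdkn2a, 0.46 to 0.74 for Cdkn2b, 0.067 to 0.70 for Smad4, -0.26 to 0.51 for Arid1a, 0.55 to 0.87 for Rnf43 and 0.64 to 0.84 for Brca2. The r of Smad4 of 0.70 (exact permutation p = 0.0359) was that without sgNT 5. Per kilobase of the longest transcript, levels were 57.2 CPM for Trp53, 17.4 for Arid1a, 9.95 for Smad4, 2.68 for Brca2, 1.12 for Rnf43 and 0.0685 for Gata6. Depth limits Cdkn2a, Cdkn2b and Gata6, with at most 53 counts in any tumor.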
